A study of Mus musculus with 3 samples.

Results

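Uba7, Ube2l6, Herc6, Usp18, Parp9, Dtx3l, Parp12 and Parp14 were each read by at least 1 probe set of their own and are described here on the arrays of C3H10T1/2 cells, a mouse mesenchymal line. They belong to a list of 10 genes that encode the modifier ISG15, the enzymes that attach and remove it, and PARPs induced by interferon. A gene was taken where a probe set was annotated with its symbol alone, which gave 8 of the 10 genes and 15 of 34945 probe sets with 1 symbol. Isg15 and Parp10 have 1 probe set each, shared with another gene, so they were kept out of every count of array values. The array labelled Venus-Mkx came from cells given a retrovirus with Venus-Mkx, which joins the fluorescent protein Venus to the transcription factor Mohawk. The Venus array came from cells given the retrovirus with Venus alone, and the C3H10T1/2 array from cells labelled as the control. By the study's methods the retroviruses were made from the pMIGR vector in PLAT-E packaging cells and put on the cells in a medium with puromycin, and the C3H10T1/2 cells grew in α-MEM with fetal bovine serum. Each condition had 1 array. No value has a replicate check and no p-value is given, and an effect of the vector, of the inserted gene or of the culture cannot be told apart in any difference.

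ISG15 is a small protein related to ubiquitin that cells make after exposure to type I interferon. UBA7 activates it, UBE2L6 carries it and, in mice, HERC6 is the main ligase that joins it to target proteins, whereas USP18 removes it again and also restrains the interferon receptor. PARPs transfer ADP-ribose to proteins. PARP9 works in a pair with the ubiquitin ligase DTX3L, and PARP10, PARP12 and PARP14 add single ADP-ribose units. Genes of this kind are switched on through a promoter motif, the interferon-stimulated response element, and are known from antiviral defence in fibroblasts as in most other cells.

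The promoters of Isg15, Uba7 and Dtx3l are printed because they were the windows of the members that held a match to this element or to its core. RefSeq sequences of the build GRCm38.p6 were at hand for 6 of the 10 genes, each with 1 window of 300 bases, from 250 bases before the transcription start to 50 after it. The letters searched on both strands were GAAANNGAAA for the response element and AANNGAAA for its shorter core, and every match of the longer motif also holds the shorter one. Matches are in capitals.
Isg15: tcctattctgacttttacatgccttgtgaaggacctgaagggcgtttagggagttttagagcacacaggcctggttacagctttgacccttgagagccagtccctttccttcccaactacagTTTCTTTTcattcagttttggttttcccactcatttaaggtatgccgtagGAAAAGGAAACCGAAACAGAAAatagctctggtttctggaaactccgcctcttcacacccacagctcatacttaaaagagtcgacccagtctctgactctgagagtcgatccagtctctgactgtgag
Uba7: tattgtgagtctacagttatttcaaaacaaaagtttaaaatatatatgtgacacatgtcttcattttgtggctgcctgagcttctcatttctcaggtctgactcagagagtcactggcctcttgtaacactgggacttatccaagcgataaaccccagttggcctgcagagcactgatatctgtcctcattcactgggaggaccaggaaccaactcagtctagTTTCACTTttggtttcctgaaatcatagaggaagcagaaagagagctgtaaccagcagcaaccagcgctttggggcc
Dtx3l: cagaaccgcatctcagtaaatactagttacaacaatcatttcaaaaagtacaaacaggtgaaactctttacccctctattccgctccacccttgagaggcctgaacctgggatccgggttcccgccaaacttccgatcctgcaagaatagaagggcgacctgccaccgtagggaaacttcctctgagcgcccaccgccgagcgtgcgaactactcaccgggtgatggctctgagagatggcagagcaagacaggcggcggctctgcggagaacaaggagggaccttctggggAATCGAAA
These windows lie at chr4:156200769-156201068 (minus strand) for Isg15, chr9:107975317-107975616 (plus strand) for Uba7 and chr16:35938978-35939277 (minus strand) for Dtx3l. Isg15 held 3 overlapping matches to GAAANNGAAA between 78 and 57 bases before its start. No other of the 6 windows held one, against 3.44% of 32851 windows in the table. Isg15 has no probe set of its own, so no gene counted on the arrays held GAAANNGAAA in a member window searched here. The shorter AANNGAAA was found in Isg15, in Uba7 at 27 to 20 bases before the start and in Dtx3l at bases 43 to 50 after it, and in 23.9% of all windows. The windows of Ube2l6, Herc6 and Parp12 held no match to the letters of either motif. A match describes the letters in the window and is not a measured binding site.

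The arrays were read on the log2 scale on which they were deposited. Values had a median of 4.39 on the array labelled Venus-Mkx, 4.34 on the Venus array and 4.34 on the C3H10T1/2 array. A level under the median of all values, 4.34, was taken as below the floor, where it cannot be told from background. The 11169 of 18193 genes that reached the floor on at least 1 array are called measured. The probe set of Mkx (1437492_at) read 2.71 on the array labelled Venus-Mkx, 7.43 on the Venus array and 6.88 on the C3H10T1/2 array, which goes against the label. No source used here says if this probe set reads the part of Mkx that the vector carries. Every direction below holds for the array under that label. Of 9 mesenchymal markers read, all 9 were above the floor on every array. Of 12 macrophage markers, 3 reached it on each array, and their mean level was 3.71, 3.45 and 3.24 on the arrays labelled Venus-Mkx, Venus and C3H10T1/2. Ptprc, Adgre1 and Itgam, which define macrophages and leukocytes, were below the floor throughout, whereas Lyz2 and Csf1r were higher on the array labelled Venus-Mkx than on the Venus array, by 2.16 and 1.23. Cd14, the remaining marker that reached the floor, differed from Venus by −0.50. Other probe sets of Csf1r differed from Venus by 0.79 and 0.21. None of 6 markers of T and NK cells reached the floor on any array. On every array, 1 of 6 epithelial markers and 2 of 5 markers of plasmacytoid dendritic cells, Bst2 and Tlr9, reached it. Among 5 endothelial markers, 1 did so on the arrays labelled Venus-Mkx and C3H10T1/2, and 0 on the Venus array. The 3′ control probe set exceeded the 5′ one by 0.65, 0.50 and 0.46 for actin, and by 0.16, 0.10 and −0.016 for Gapdh, on the arrays labelled Venus-Mkx, Venus and C3H10T1/2. The part of these differences in the values below was not tested.

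All 8 members were higher on the array labelled Venus-Mkx than on both control arrays. The log2 difference from Venus ran from 1.88 for Ube2l6 to 3.75 for Uba7, with a median of 2.82, or 7.05-fold, where the median over all measured genes was 0. The difference from C3H10T1/2 was lowest for Ube2l6, at 2.64, and highest for Usp18, which was below the floor in C3H10T1/2 and so differed by at least 5.85, with a median of 3.79. Each of the 8 was at least 2-fold higher than both controls, as were 6.82% of measured genes and 4.36% of all 18193 genes without a floor. Of the 8, 7 were above the floor on all 3 arrays, so their differences do not rest on the floor. In 8 of 8 members the Venus array was the middle one, under the array labelled Venus-Mkx and over C3H10T1/2, an order that 20.4% of measured genes had. RNA was taken from whole cultures, so more RNA per cell and a larger share of expressing cells cannot be told apart.

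**Figure D1:**
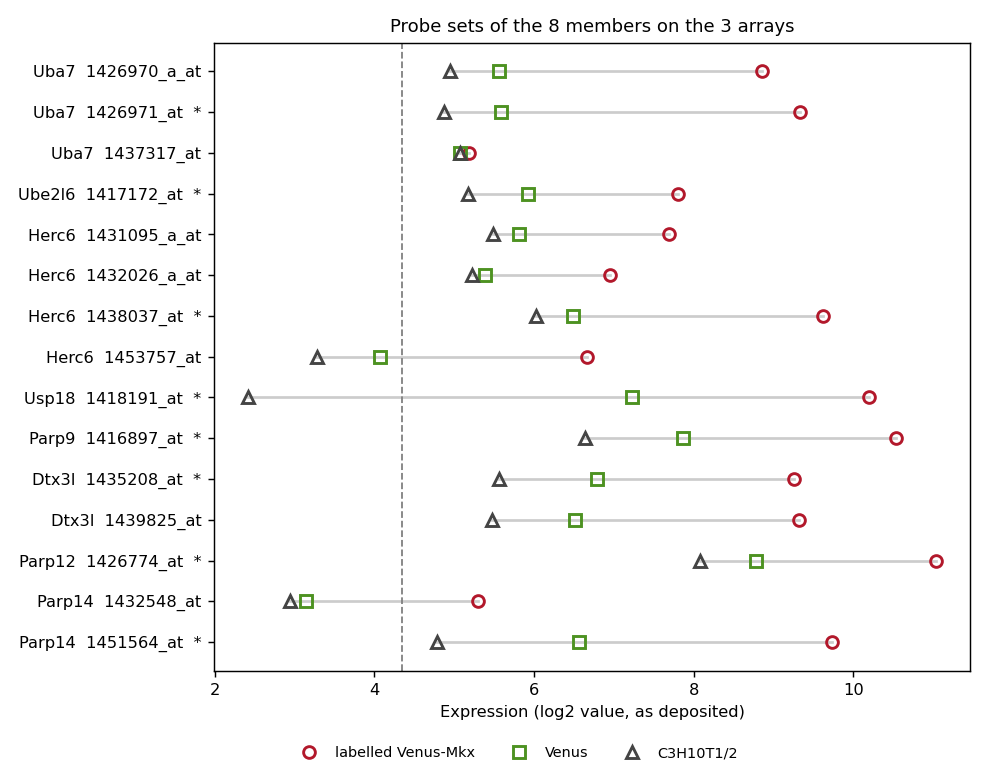
Log2 values of the 15 probe sets of the 8 members, with 1 array per condition. Circles are the array labelled Venus-Mkx, squares Venus and triangles C3H10T1/2. An asterisk marks the probe set that stands for the gene, and the dashed line is the floor of 4.34. Circles lie to the right of squares and triangles in every row, by 0.11 in the third probe set of Uba7.

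Among the genes that conjugate ISG15, the activating enzyme differed most from Venus. Uba7 (1426971_at) read 9.33 on the array labelled Venus-Mkx, 5.59 on the Venus array and 4.87 on the C3H10T1/2 array. This was 13.4-fold above Venus and 22.0-fold above C3H10T1/2. A second probe set, 1426970_a_at, read 8.85, 5.56 and 4.95 on the same arrays in that order, close to the first. The third, 1437317_at, read 5.18, 5.07 and 5.07, so it was near one level on all 3 arrays, and it was the only 1 of the 15 probe sets that, as read, was not at least 2-fold higher than both controls. Over all probe sets with 1 symbol, 3.49% were.

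Ube2l6 (1417172_at), the conjugating enzyme that takes ISG15 from UBA7, read 7.81 on the array labelled Venus-Mkx, 5.92 on the Venus array and 5.17 on the C3H10T1/2 array. Its difference from Venus, 3.69-fold, was the smallest of the 8. Herc6 (1438037_at), the ligase, read 9.61 on the array labelled Venus-Mkx, 6.49 on the Venus array and 6.03 on the C3H10T1/2 array. It was 8.72-fold above Venus and 3.59 above C3H10T1/2 on the log2 scale. Its control arrays were the closest of any member, 0.46 apart. The other 3 probe sets of Herc6 were above Venus by 1.56, 1.87 and 2.59 on the log2 scale, so all 4 gave the same direction and differed in size. The one with 2.59, 1453757_at, was below the floor on both control arrays and shows only that it was at least 5.02-fold higher.

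Usp18 (1418191_at), which takes ISG15 off its targets, was the member that differed most between the control arrays. It read 10.20 on the array labelled Venus-Mkx, 7.22 on the Venus array and 2.42 on the C3H10T1/2 array, the last below the floor. It was 7.86-fold higher on the array labelled Venus-Mkx than on the Venus array. Read against the floor, it was at least 57.8-fold higher than in C3H10T1/2, and the Venus array was at least 7.35-fold higher than the C3H10T1/2 array. Usp18 was the 1 member of 8 whose difference between Venus and C3H10T1/2 as read exceeded that of the array labelled Venus-Mkx from Venus. With the floor in place of the C3H10T1/2 value the difference between the controls is at least 2.88, against 2.97 above Venus, so which was larger is not settled.

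The PARP genes and Dtx3l were above Venus by 2.25 to 3.17 on the log2 scale, and above C3H10T1/2 by 2.95 to 4.95. Parp9 (1416897_at) read 10.53 on the array labelled Venus-Mkx, 7.87 on the Venus array and 6.64 on the C3H10T1/2 array. Dtx3l (1435208_at), its partner, read 9.26 on the array labelled Venus-Mkx, 6.79 on the Venus array and 5.56 on the C3H10T1/2 array. Parp9 and Dtx3l thus differed alike, by 2.66 and 2.47 above Venus on the array labelled Venus-Mkx and by 1.23 and 1.23 between Venus and C3H10T1/2. A second probe set of Dtx3l (1439825_at) differed by 2.80 and 1.03. The genes are neighbours on chromosome 16 of GRCm38.p6 with 0 annotated genes between them, and Parp14 lies on the same chromosome, separated from Dtx3l by 2 pseudogenes.

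Parp14 (1451564_at), a large PARP that binds ADP-ribose through macrodomains, had the highest fold above Venus of the PARPs with a probe set of their own, although with the mean of its probe sets it was 2.66 above Venus on the log2 scale, level with Parp9. It read 9.73 on the array labelled Venus-Mkx, 6.57 on the Venus array and 4.78 on the C3H10T1/2 array, 8.98-fold and 30.9-fold above them. A second probe set of Parp14, 1432548_at, was below the floor on both controls and read 5.30 on the array labelled Venus-Mkx, so that it was at least 1.94-fold higher. Parp12 (1426774_at), a PARP with zinc fingers, read 11.03 on the array labelled Venus-Mkx, 8.78 on the Venus array and 8.08 on the C3H10T1/2 array. It was 4.76-fold above Venus, the smallest difference of the PARPs with a probe set of their own.

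The 2 genes without a probe set of their own were read only through shared ones. Probe set 1431591_s_at, annotated to Isg15 and to the pseudogene Gm9706, read 12.42 on the array labelled Venus-Mkx, 8.64 on the Venus array and 5.64 on the C3H10T1/2 array. It was 13.7-fold above Venus, but the signal may come from either gene. The probe set annotated to Gm9706 alone (1453939_x_at) read 9.07, 5.34 and 3.72 on these arrays, the last below the floor. Its name ends in _x_at, the mark of probes that may also bind other transcripts. Probe set 1452178_at, annotated to Parp10 and the nearby gene Plec, which encodes the cytoskeletal linker plectin, read 10.28 on the array labelled Venus-Mkx, 6.71 on the Venus array and 5.96 on the C3H10T1/2 array. It was 11.8-fold above Venus, whereas the 3 probe sets of Plec alone differed from Venus by 0.17, 0.14 and −0.0099 on the log2 scale.

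The control arrays themselves differed in the members. All 8 were higher on the Venus array than on the C3H10T1/2 array, by a median of 0.99 on the log2 scale. The median over all measured genes was 0, and the share of them higher in Venus at any size was not taken. Of the 8, 4 were higher by at least 2-fold, Usp18, Parp14, Dtx3l and Parp9, where 1.49% of measured genes were. Ube2l6, Uba7, Parp12 and Herc6 differed by 0.75, 0.71, 0.70 and 0.46. Over all measured genes the SD of this difference was 0.34, and it was 0.94 for the array labelled Venus-Mkx minus Venus. Both differences use the Venus array, so an error in one of its values moves them in opposite directions, and they are set side by side only.

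**Figure D2:**
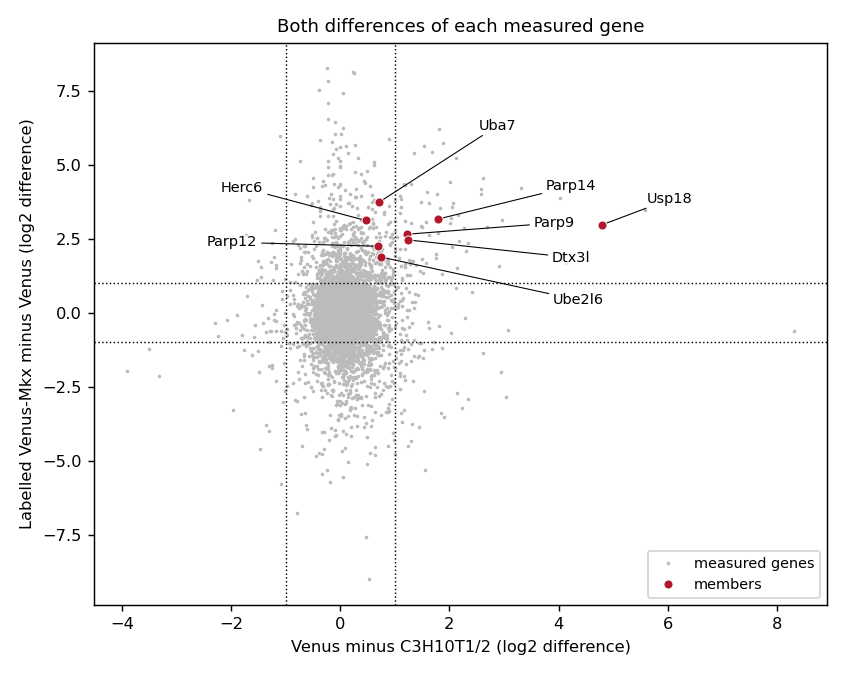
Log2 difference of the Venus array from the C3H10T1/2 array (horizontal) and of the array labelled Venus-Mkx from the Venus array (vertical) for 11169 measured genes, 1 array per condition. Grey points are genes, red points the 8 members, and dotted lines mark 2-fold. All members lie above the upper line, from 1.88 to 3.75, and 4 lie to the right of the right-hand line.

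As read, the genes nearest to Usp18 in these 2 differences were Ifit1, Ifit3, Mndal, Ifi27l2a and Iigp1, all known as interferon-induced, at distances of 0.94, 1.18, 1.45, 1.83 and 1.93 on the log2 scale over the 3 arrays. Usp18, Ifit1, Mndal and Iigp1 were below the floor in C3H10T1/2, so the order is not settled. With values below the floor raised to it, a setting chosen after seeing the data, the nearest were Ifi27l2a, Xaf1, Rtp4, Oas1a and Tgfbi, at 0.18, 0.19, 0.62, 0.79 and 0.88, and Ifi27l2a was the 1 gene among the nearest 5 both ways. Tgfbi encodes a matrix protein induced by TGF-β.

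Other genes of the same families include some, such as Parp11, Tiparp and Zc3hav1, that are also known to respond to interferon. Of 12 other PARP family genes, all measured, none was at least 2-fold higher or lower than both controls, where 6.82% of measured genes were higher and 5.34% lower, so few or none would be called at the background share. Their median difference from Venus was 0.37. Parp11 was the nearest to the threshold, at 8.22 on the array labelled Venus-Mkx, 7.23 on the Venus array and 6.87 on the C3H10T1/2 array, a difference of 0.98 and 1.35 that fell just short against Venus. It passed after quantile normalization, the 1 of 12 to do so. Tiparp, which encodes another enzyme that adds single ADP-ribose units, differed by 0.82 and 0.79, and Zc3hav1, which encodes the antiviral zinc-finger protein ZAP, by 0.54 and 0.45. Parp1, the DNA-damage PARP, differed by −0.065 from Venus, and Tnks, which encodes tankyrase, by −0.26. Of 3 measured relatives of Dtx3l, none passed, also near the background share. Dtx3 differed by 0.61 from Venus, Dtx2 by −0.15 and Dtx4 by −0.54. Of 33 listed genes of ubiquitin-like modifiers and their housekeeping enzymes, 21 had a probe set of their own and all 21 were measured. Of these, none was higher and 1 was lower, also near the background share. The lower gene was Ufm1, which encodes another ubiquitin-like modifier, with −1.03 from Venus and −1.07 from C3H10T1/2. In the same list as read, Herc3 differed by 0.78 and 1.36, from values below the floor on both controls, Herc1 by 0.47 and 0.67, Herc2 by −0.52 and −0.57, Herc4 by 0.051 and 0.051, Uba6 by −0.24 and −0.16 and Arih1, an additional ligase reported for ISG15, by 0.091 and 0.029. Ube2f, which carries the modifier NEDD8, differed by −0.71 and −0.99. Uba1 and Ube2l3 have no probe set of their own here and were not analysed.

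The enzymes that take ADP-ribose away were mixed, with 7 of 9 listed genes read. Macrod1, a hydrolase that removes single ADP-ribose units, read 9.48 on the array labelled Venus-Mkx, 6.48 on the Venus array and 6.60 on the C3H10T1/2 array. It was 7.97-fold above Venus, close to the members in size, but its control arrays differed by only −0.12. Macrod2 differed by 1.33 from Venus and 2.12 from C3H10T1/2, where it was below the floor, and its 3 other probe sets were below the floor on all arrays. Macrod1 and Macrod2 were thus 2 of 7 measured genes at least 2-fold higher than both controls, where 6.82% of all measured genes were. The other 5 of 7 were neither higher nor lower, with Parg, which breaks down ADP-ribose chains, at −0.028 from Venus, Oard1 at −0.030, Adprhl2 at −0.22 and Nudt9 at −0.40.

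The 3 interferon genes read were below the floor, whereas 5 of 14 measured genes of interferon signalling were higher, beside 6.82% of all measured genes. Ifnb1 read 3.04 on the array labelled Venus-Mkx, 3.04 on the Venus array and 3.08 on the C3H10T1/2 array, and Ifna2 and Ifna4 were also below the floor on all 3, so a change in them could not be read. The receptor genes Ifnar1 and Ifnar2 differed from Venus by 0.050 and 0.20, the receptor gene Ifngr2 by −0.46 and the kinase gene Jak1 by −0.23, and Tyk2, which encodes another kinase, read 7.22 on both arrays. These 5, Irf7, Stat2, Irf1, Socs3 and Irf9, exceeded both controls by at least 2-fold and none was lower, with a median of 0.17 over the 14. Socs3 encodes a protein that restrains cytokine signalling. Irf7, the factor that amplifies interferon production, differed by 3.99 from Venus, Stat2 by 2.15 and Irf1 by 2.12. Irf9, a transcription factor of the interferon response, read 9.57 on the array labelled Venus-Mkx, 7.74 on the Venus array and 6.24 on the C3H10T1/2 array. Of the 14 measured, Irf9 alone was at least 2-fold higher in Venus than in C3H10T1/2, where 1.49% of all measured genes were. Irf3, another factor of the same family, differed by 0.15 from Venus and 0.38 from C3H10T1/2. Irf1 differed by −0.039 between Venus and C3H10T1/2.

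Genes listed here as cofactors or reported partners of ISG15 were higher in 7 of 8 measured cases, where 6.82% of all measured genes were, with a median of 2.86 from Venus. The list was chosen with earlier results of these data known, and its genes were not sorted by whether interferon also induces them. Whether a tie to ISG15 has a part in the count was not tested. Trim30a differed by 5.23 from Venus and was below the floor in C3H10T1/2, and Ddx60, below the floor on both controls, differed by at least 4.83. Bst2, a membrane protein that tethers viruses, and the RNA sensor gene Ifih1 followed, with 12.21 and 10.65 on the array labelled Venus-Mkx and 8.21 and 7.10 on the Venus array. Eif2ak2, which encodes an RNA-activated kinase, differed by 1.35. Becn1, an autophagy gene, differed by −0.14 and was the gene not counted as higher. Trim25, which encodes another ligase reported for ISG15, was below the floor on all 3 arrays in each of its probe sets.

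**Figure D3:**
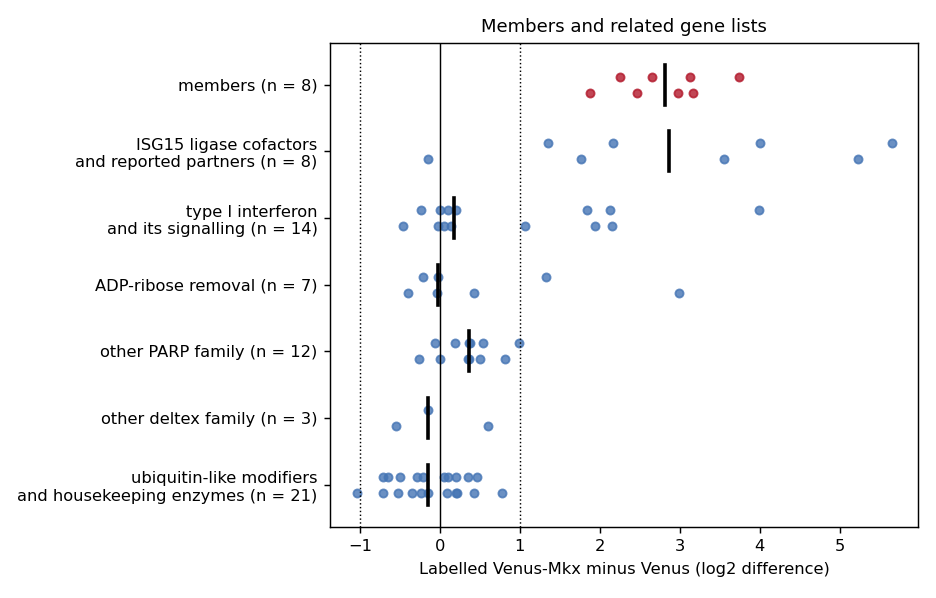
Height above or below the Venus array, as a log2 difference of the array labelled Venus-Mkx, for the 8 members and the measured genes of 6 related lists. There was 1 array for each condition. A point stands for 1 gene, black bars are medians and dotted lines mark 2-fold. All members lie above the 2-fold line, with a median of 2.82, whereas none of 12 other PARP family genes does, with a median of 0.37.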

How the data were processed

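RNA of 3 cultures was labelled with a 3′ IVT kit and hybridized to 1 Affymetrix mouse genome array each. The values that the authors deposited are on a log2 scale, with 1 value per probe set and array. The paper's methods name MAS 5.0 and the submitters' processing notes RMA, with no version given in the sources used here. Values were used as deposited. Of 45101 probe sets, 64 controls were left out, 34945 carried 1 symbol, 932 several and 9160 none. Where a gene had several probe sets, the brightest on average stood for it. Log2 differences were taken between arrays, and a gene was called higher or lower at 2-fold against both controls. Signal over background and the number of arrays limit the precision. The calling rule was tested on simulated data with noise set by the spread between the control arrays. That spread, an SD of 0.34, was below the 0.94 of the array labelled Venus-Mkx minus Venus. The test therefore does not vouch for the calls made here. Members and lists were chosen with earlier results of these data known, and the motifs with the promoter letters known. Genes named are the members, Mkx, a list of relatives and signalling genes chosen with the members, the 2 highest and 2 lowest of each list by difference from Venus, and the 5 nearest to Usp18. The rule put Isg15 in that last place, or Usp18 if Isg15 had no probe set of its own. Other genes named, such as Bst2, Ifih1, Irf3, Socs3 and the marker genes, were chosen after their values were seen. Alternatives changed the floor, the probe sets of a gene, the scale, the control and the fold threshold. Python 3.11.15, NumPy 2.4.6, pandas 2.3.3 and matplotlib 3.10.9 were used.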

Additional observations from a re-analysis of the deposited data

How the results depend on the processing

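All 8 members stayed at least 2-fold higher on the array labelled Venus-Mkx under every alternative tried, including a 3-fold threshold, and their differences from Venus were at least 1.84 on the log2 scale in all 48 cases. Their median difference, 2.82 from Venus, was 3.79 against C3H10T1/2 and 3.31 against the mean of the 2 controls. The number of members higher in Venus than in C3H10T1/2, 4 at 2-fold, was 7 at 1.5-fold, 2 at 3-fold and 3 with the mean of all probe sets, where Parp14 lost the call. It was also 4 with values below the floor raised to it, a setting chosen after seeing the data. Of 12 other PARP family genes, 0 passed at 2-fold, 1 after quantile normalization, 2 against C3H10T1/2 alone, 1 against the mean of the controls and 2 at 1.5-fold. Of 21 housekeeping genes for ubiquitin-like modifiers, 0 passed, and 1 did against C3H10T1/2 alone, against the mean of the controls and at 1.5-fold. Each time this was Herc3, which was below the floor on both controls. With values below the floor raised to it, Herc3 was 0.25 above each control. For the counts of members and of both lists, no share of all genes was taken at the changed thresholds, controls, scales or probe sets. Of 96 member differences under alternatives, 92 moved by less than 0.34, the SD of the difference between the control arrays. The other 4 moved with the mean of all probe sets, which gave 2.38 for Uba7, 2.29 for Herc6 and 2.66 for Parp14 above Venus, and 0.99 for Parp14 between Venus and C3H10T1/2. Many of the 96, and of the 48 from Venus, could not move. A change of floor only selects genes, and none of the 8 has a probe set ending in _x_at or _s_at. For a member with 1 probe set, the mean of all probe sets is the same value. Centring and quantile normalization moved the median of all genes by −0.047 and 0.025. No paired analysis was possible because each condition has 1 array.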
